A study of Mus musculus with 23 samples.

Results

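The LPS response of bone marrow-derived macrophages (BMDM) that lack both MK2 and MK3 was read from 8 of the 23 arrays of the 2 h experiment, 4 of MK2/3-/- BMDM treated with LPS and 4 of MK2/3-/- BMDM kept in medium. These arrays were chosen by their labels for genotype and treatment. LPS was given at 100 ng/ml for 120 min, and the medium arrays received none. The MK2/3-/- mice were 11 to 14 weeks old, and the medium and LPS arrays with the same replicate number share the age of the mouse. The other 15 arrays held wt BMDM (4 medium and 4 LPS, mice of 12 to 13 weeks) and MK2-/- BMDM (3 medium and 4 LPS, mice of 10 to 13 weeks), treated the same way. All mice were male and of strain C57BL/6, per the labels. The bone marrow cells had been differentiated for 9 days before treatment. All cells had been moved to medium without M-CSF, the growth factor of macrophage cultures, before LPS was added.

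LPS, a component of the outer membrane of Gram-negative bacteria, is sensed by TLR4 with its co-receptors CD14 and MD-2. MyD88 with TIRAP leads to NF-kB, the MAP kinases and early cytokine genes, whereas TRIF with TRAM leads to IRF3 and the gene of IFN-beta, whose secretion then drives a wave of interferon-stimulated genes through JAK kinases and STAT factors. MK2 (gene Mapkapk2) and its close relative MK3 (Mapkapk3) are kinases downstream of p38, a MAP kinase. MK2 is best known for its phosphorylation of tristetraprolin, an RNA-binding protein that directs mRNAs with AU-rich elements, such as those of TNF and IL-10, to decay.

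Each sample was labelled with a single dye and hybridized to its own array, and levels are given as log2 of the quantile-normalized signal. No spot was saturated. The number of arrays limits the precision. The share of spots well above background ranged from 48.4 to 69.4% on the MK2/3-/- medium arrays and from 49.4 to 56.3% on the LPS arrays. Medium replicate 1 was the dimmest array of the series and medium replicate 2 had the highest share, with no fit of the gradient across the array. Medium replicate 1 stood apart from the other arrays of its group. In it, 405 of 13653 genes (2.97%) lay farther from the other 3 arrays than Dixon's criterion allows, compared with 0.447 to 1.44% on the other medium arrays. LPS replicate 4 had the lowest median correlation with its group among the 8 MK2/3-/- arrays (r = 0.964). Among the genes that rose, it had the lowest value of the 4 LPS arrays in 56.8%, and among those that fell it had the highest in 54.3%. The results below include these arrays, and counts are also given without them. All medium arrays of MK2/3-/- BMDM lay in 1 row of their slide and all LPS arrays in the other, so that treatment and slide row cannot be told apart, and each genotype had a slide of its own.

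Macrophage identity was checked by marker genes. All 7 measured macrophage markers (Adgre1, Csf1r, Itgam, Lyz2, Cd14, Mertk and Fcgr1) were well above background on all 8 arrays, and their summed linear signal ranged from 641156 to 737431 on the medium arrays and from 634521 to 849196 on the LPS arrays. Markers of other cells were present at lower levels. The summed signal of 7 neutrophil genes spanned 2973 to 18267 without LPS and 3300 to 16502 with it, with the highest value in replicate 2 of both groups. For 6 fibroblast genes it ranged from 547 to 58997 on the medium arrays and from 896 to 48998 on the LPS arrays, with replicate 4 highest in both groups and Pdgfra not well above background on any array. The sum of 6 dendritic cell genes lay between 3910 and 12396 without LPS and between 6543 and 15353 with it, and Clec9a was not well above background on any array. The 4 endothelial genes summed to between 144 and 391 without LPS and 217 and 923 with it and were higher after LPS at each replicate number. Of the remaining lists, the 7 T or NK cell genes summed to values between 870 and 2348 without LPS and 1158 and 2239 with it, and the 6 B or plasma cell genes to 474 to 819 and 536 to 952, and the 13 mast cell, erythroid and megakaryocyte genes summed to no more than 124 per list on any array. The defining T cell genes Cd3d and Cd8a, the B cell gene Pax5, the mast cell genes Cpa3, Fcer1a and Ms4a2, the erythroid gene Alas2 and the platelet genes Gp9 and Gp1ba were not well above background on any of the 8 arrays. The T cell gene Cd3e and the B cell gene Cd79b were so on all 8, and the mast cell gene Kit on none of the medium and 3 of the 4 LPS arrays. In bulk RNA, fewer cells of a type and less RNA per cell cannot be told apart. The part of the other cells in the results was not tested.

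The targeted genes were examined next. Mapkapk2 was at 8.61, 8.57, 8.91 and 8.79 in medium replicates 1 to 4 and at 11.54, 11.65, 11.58 and 12.26 in LPS replicates 1 to 4. The signal was higher on all 4 LPS arrays than on any medium array (log2 change 3.04 ± 0.25 SE, adjusted p = 2.51e-08), from a level far below that of wt BMDM, whose mean was 12.22 in medium and 14.77 after LPS. Mapkapk3 was at 11.97, 11.56, 12.08 and 11.89 in medium and at 10.64, 10.36, 10.89 and 10.91 after LPS, and fell by 1.17 ± 0.17 (SE, adjusted p = 2.38e-05), with the groups apart. In wt BMDM its mean was 13.50 in medium and 14.01 after LPS. Both genes thus remained above background in the knockouts, and each was measured by a single probe. Whether these probes lie in the deleted parts of the genes is not given in the sources used here, so that the remaining signal does not measure active kinase.

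After LPS, 3107 of 26014 genes rose (11.9%) and 3367 fell (12.9%) in MK2/3-/- BMDM at an adjusted p under 0.05. Here and below, the adjusted p of a gene is that of limma with Benjamini-Hochberg adjustment over all genes, and changes are differences of mean log2 signals, LPS minus medium. The change was at least 2-fold for 2047 genes that rose (7.87%) and 1901 that fell (7.31%), and at least 4-fold for 895 that rose (3.44%) and 607 that fell (2.33%). Large changes were mostly upwards, with 218 genes that rose and 45 that fell at least 16-fold. The median change of all genes was -0.02. Arrays of the 2 treatments did not overlap for 6869 genes (26.4%), among them 2494 of the genes that rose and 2871 of those that fell. For a single gene, 4 arrays against 4 that do not overlap have a two-sided exact permutation p of 0.0286. It is the smallest possible when all 8 arrays are exchanged freely. Such a test ignores the pairs by replicate number, and exchange within pairs only would leave a larger smallest p. No medium array was well above background for 330 of the genes that rose, and no LPS array for 341 of those that fell, so that only a bound of their folds can be given. Without LPS replicate 4, 3515 genes rose and 3468 fell, and without medium replicates 1 and 2 together, a choice made after seeing the data, 2792 rose and 3061 fell.

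The 12 largest rises among genes named in the reference table were led by cytokines and chemokines, and the 5 given first are those of largest rise with a promoter in the table (Ccl7, above Il19 and Cish, has none). Ifnb1, which encodes IFN-beta, was at 3.09, 2.64, 1.94 and 2.05 in medium, where 1 of 4 arrays was well above background, and at 13.46, 13.44, 13.13 and 14.76 after LPS (11.26 ± 0.45 SE, adjusted p = 1.57e-12). Il6, the gene of a cytokine that drives fever and the acute-phase response, rose from 4.93, 6.05, 4.56 and 2.44 to 15.73, 16.57, 15.41 and 15.06 (11.20 ± 0.86 SE, adjusted p = 1e-08). Cxcl9, a chemokine that attracts activated T cells, was at 5.37, 3.52, 4.67 and 2.77 in medium and at 16.10, 16.75, 15.03 and 12.62 after LPS (11.04 ± 1.05 SE, adjusted p = 1.68e-07), with LPS replicate 4 the lowest. Il19, a cytokine of the IL-10 family, was well above background on none of the medium arrays, and its values were 11.69, 12.74, 11.95 and 10.59 after LPS, at least 258-fold higher (adjusted p = 1.24e-11). That bound holds for the main processing, and the smallest log2 change of Il19 under other settings was 5.75. Cish, a SOCS family protein that dampens cytokine receptor signals, rose from 2.47, 4.80, 3.79 and 4.60 to 13.84, 14.25, 13.95 and 12.07 (9.61 ± 0.59 SE, adjusted p = 4.44e-10). In all 5 genes the 4 LPS arrays lay above the 4 medium arrays by a wide gap. The sizes of these rises, and so their order, are uncertain. Under other settings the smallest changes of Ifnb1, Il6, Cxcl9 and Cish were 7.35, 9.02, 8.34 and 7.03. Il19 belongs to the IL-10 family genes that lie beside the deleted gene Mapkapk2. The distance of Cish from the deleted Mapkapk3 is not given here, and an effect of the deletions on neighbouring genes was not tested.

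The promoters of these 5 genes and of the 2 named genes with the largest falls (Bmf and Arrdc3, described below) are shown for the motifs that LPS-activated factors bind. Each runs 5′ to 3′ on the strand of the gene from 250 bases before the transcription start to 50 after it, as given by RefSeq on GRCm38.p6. Capitals mark matches to an NF-kB site, an interferon-stimulated response element core (2 copies of TTTC with 2 bases between them), an AP-1 site (TGACTCA or TGAGTCA), a CRE or a serum response element, searched on both strands. The positions are chr4:88522745-88523044 on the minus strand for Ifnb1, chr5:30012864-30013163 on the plus strand for Il6, chr5:92328030-92328329 on the minus strand for Cxcl9, chr1:130940066-130940365 on the minus strand for Il19, chr9:107296409-107296708 on the plus strand for Cish, chr2:118544538-118544837 on the minus strand for Bmf and chr13:80883134-80883433 on the plus strand for Arrdc3.
Ifnb1: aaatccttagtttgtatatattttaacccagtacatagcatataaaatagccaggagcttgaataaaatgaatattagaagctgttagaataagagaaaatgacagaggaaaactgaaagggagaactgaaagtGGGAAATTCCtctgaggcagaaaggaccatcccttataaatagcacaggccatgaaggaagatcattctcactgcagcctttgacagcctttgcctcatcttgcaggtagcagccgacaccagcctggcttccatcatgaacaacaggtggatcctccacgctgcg
Il6: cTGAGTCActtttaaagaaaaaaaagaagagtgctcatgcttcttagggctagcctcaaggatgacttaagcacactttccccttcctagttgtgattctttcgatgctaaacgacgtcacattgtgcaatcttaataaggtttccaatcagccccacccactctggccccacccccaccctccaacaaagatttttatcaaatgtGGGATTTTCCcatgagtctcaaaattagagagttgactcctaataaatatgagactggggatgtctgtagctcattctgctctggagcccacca
Cxcl9: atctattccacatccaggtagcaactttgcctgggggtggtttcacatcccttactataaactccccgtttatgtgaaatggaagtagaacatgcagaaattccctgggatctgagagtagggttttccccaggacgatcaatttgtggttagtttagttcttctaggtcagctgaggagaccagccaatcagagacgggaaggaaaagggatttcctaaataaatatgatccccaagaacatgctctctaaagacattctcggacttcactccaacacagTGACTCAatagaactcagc
Il19: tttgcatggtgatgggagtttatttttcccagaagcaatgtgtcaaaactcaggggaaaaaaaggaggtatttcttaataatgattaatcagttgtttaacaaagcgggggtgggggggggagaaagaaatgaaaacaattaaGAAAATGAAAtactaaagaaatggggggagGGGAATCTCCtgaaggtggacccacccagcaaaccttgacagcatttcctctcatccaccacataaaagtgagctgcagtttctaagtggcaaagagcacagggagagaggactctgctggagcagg
Cish: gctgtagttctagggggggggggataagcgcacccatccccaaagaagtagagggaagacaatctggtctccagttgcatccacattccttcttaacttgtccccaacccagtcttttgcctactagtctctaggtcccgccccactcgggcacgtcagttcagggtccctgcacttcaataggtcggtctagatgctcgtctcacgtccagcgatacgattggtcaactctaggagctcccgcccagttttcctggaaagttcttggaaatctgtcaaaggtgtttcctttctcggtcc
Bmf: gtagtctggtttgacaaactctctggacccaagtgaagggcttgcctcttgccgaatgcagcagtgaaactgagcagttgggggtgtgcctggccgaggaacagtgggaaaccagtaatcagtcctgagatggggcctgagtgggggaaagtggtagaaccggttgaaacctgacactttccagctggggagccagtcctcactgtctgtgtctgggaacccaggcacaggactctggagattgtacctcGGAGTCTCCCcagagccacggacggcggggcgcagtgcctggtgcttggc
Arrdc3: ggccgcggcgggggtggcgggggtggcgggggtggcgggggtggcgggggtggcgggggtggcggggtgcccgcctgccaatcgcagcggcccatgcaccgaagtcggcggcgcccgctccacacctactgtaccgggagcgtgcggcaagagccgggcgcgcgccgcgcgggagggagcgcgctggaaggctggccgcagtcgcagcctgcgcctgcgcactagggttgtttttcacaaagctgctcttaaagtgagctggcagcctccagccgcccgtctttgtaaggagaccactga

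The Ifnb1 promoter held an NF-kB site that began 116 bases before the start, and that of Il6 an NF-kB site 44 and an AP-1 site 249 bases before it. In the Il19 promoter an NF-kB site began 77 and an interferon-stimulated response element core 107 bases before the start. The match in Cxcl9 was an AP-1 site 31 bases after the start, and that in Bmf an NF-kB site at the start itself. No match was found in the window of Cish or Arrdc3, which says only that these letters are not in it. Bmf and Arrdc3 have 3 promoters each in the table, of which the first is shown.

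Across genes, the share of promoters with a motif was compared as a description. The motifs were searched in the same 300 bases, using for a gene with several promoters the first one. The NF-kB site was GGG, A or G, any base, A or T, 2 bases C or T, and CC, the CRE was the palindrome of TGAC with its complement GTCA, and the serum response element was CC, 6 bases A or T, and GG. None of these can be held within another, although matches may overlap at their ends. Of the 764 named genes that rose at least 4-fold, 600 had a promoter in the table, as did 1262 of 1540 that fell at least 2-fold and 16551 of 20886 named genes tested. An NF-kB site was present in 10.5% of the promoters of the genes that rose, compared with 3.33% for those that fell and 4.62% for all genes tested. For the interferon-stimulated response element core the shares were 9.67, 2.14 and 3.40%, and for the AP-1 site 7.83, 2.69 and 4.61%. The CRE was found in 2.33, 3.41 and 2.47%, and the serum response element in 1.33, 0.792 and 1.49%. Over all 27025 promoters of the table, the shares were 4.35% for NF-kB, 3.49% for the response element core, 5.17% for AP-1, 1.88% for the CRE and 1.57% for the serum response element. Among the gene lists described below, the response element core was found in 8 of 9 promoters of interferon-inducible GTPases and in 10 of 18 of interferon-stimulated genes. An NF-kB site was found in 5 of 10 promoters of genes of NF-kB subunits and IkB proteins, 4 of 11 of CXC and 2 of 7 of CC chemokines. In the list of cytosolic ribosomal proteins, 3 of 14 promoters held the response element core and 1 an NF-kB site.

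**Figure D1:**
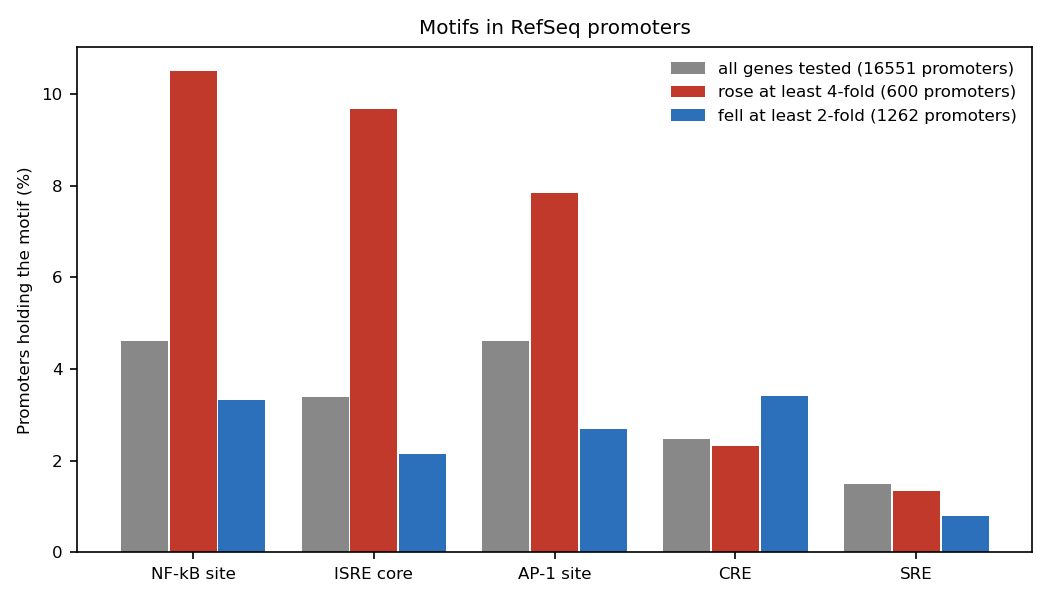
Share of promoters (%, vertical axis) that hold each of 5 motifs, for all genes tested (grey), genes that rose at least 4-fold (red) and genes that fell at least 2-fold (blue) in MK2/3-/- BMDM after LPS. The red bars stand above the grey ones for the NF-kB site (10.5 and 4.62%), the ISRE core (9.67 and 3.40%) and the AP-1 site (7.83 and 4.61%), and no test was made.

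The other 7 of these rises included further chemokines and enzymes that act outside the cell. Ccl7, a monocyte chemoattractant, rose from 2.49, 5.32, 3.87 and 5.81 to 15.08, 15.07, 12.91 and 14.07 (9.91 ± 0.81 SE, adjusted p = 2.03e-08). Il1a, the gene of IL-1 alpha, rose from 2.30, 3.72, 2.70 and 3.00 to 12.48, 12.88, 12.03 and 12.04 (9.43 ± 0.33 SE, adjusted p = 1.98e-13). Adamts4, a protease that cleaves aggrecan in the matrix, rose by 9.22 ± 1.13 SE, adjusted p = 4.2e-06, with a spread in medium from 1.84 to 6.52. These 3 genes were well above background on 1 or 2 of the 4 medium arrays. Rnd1, a small GTPase, rose by 8.99 ± 0.72 SE, adjusted p = 1.63e-08. Plat, the tissue plasminogen activator, rose by 8.91 ± 0.69 SE, adjusted p = 1.06e-08. Cxcl1, which attracts neutrophils, rose by 8.85 ± 0.49 SE, adjusted p = 1.33e-10. Gbp5, an interferon-inducible GTPase that was well above background on every medium array, rose from 8.75, 8.10, 7.17 and 6.82 to 16.60, 17.14, 16.10 and 15.51 (8.63 ± 0.54 SE, adjusted p = 5.63e-10). Under other settings the smallest changes of Ccl7, Il1a, Adamts4, Rnd1, Plat, Cxcl1 and Gbp5 were 7.62, 6.05, 6.24, 6.26, 5.93, 7.32 and 8.07.

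Falls were smaller than rises at the extreme and hit genes of cell death, signalling and transcription. Bmf, a BH3-only protein that promotes apoptosis, was at 12.51, 12.20, 12.87 and 12.66 in medium and at 6.33, 5.37, 5.93 and 6.66 after LPS (-6.49 ± 0.34 SE, adjusted p = 6.89e-11). Arrdc3, an arrestin-related adaptor for membrane receptors, was at 8.59, 10.39, 10.43 and 10.32 in medium and at 3.93, 3.96, 4.46 and 4.19 after LPS (-5.80 ± 0.44 SE, adjusted p = 8.21e-09), with medium replicate 1 the lowest of its group. Zfp36l2, a relative of tristetraprolin that also directs mRNAs to decay, was one of the brightest signals among these genes in medium (14.97, 15.14, 15.24 and 15.28) and was at 10.09, 9.37, 9.11 and 9.49 after LPS (-5.64 ± 0.35 SE, adjusted p = 5.63e-10). None of the 3 genes overlapped between treatments. AI467606 fell by 5.61 ± 0.36 (SE, adjusted p = 7.25e-10). Frat1, an inhibitor of GSK3, was at 9.68, 9.82, 10.54 and 9.92 in medium and at 2.65, 7.15, 3.07 and 5.16 after LPS (-5.49 ± 0.84 SE, adjusted p = 5.47e-05), where 2 of 4 arrays were well above background. Fam214a had a similar spread after LPS, with 6.01, 5.36, 6.37 and 9.06 (-5.02 ± 0.87 SE, adjusted p = 0.000215), the highest value being that of replicate 4. Zfp760 fell by 5.29, Rhov, a small GTPase, by 5.26, and Rab3a, a GTPase of vesicle fusion, by 5.13 (adjusted p = 2.36e-06, 6.38e-07 and 1.29e-09). After LPS, 1 of 4 arrays was well above background for Zfp760 and for Rhov, and 2 of 4 for Rab3a and for Arrdc3. The sizes of these falls are uncertain. Under other processing settings the smallest changes of Zfp760, Rhov, Rab3a and Arrdc3 were -2.21, -2.49, -3.28 and -3.59. For 3 genes no LPS array was well above background, and their falls are bounds. Dnajc28 was at least 12.2-fold lower after LPS (adjusted p = 4.52e-09), Cbx8, a Polycomb protein, at least 12.4-fold (adjusted p = 2.49e-07) and Zkscan4, a zinc finger protein, at least 5.92-fold (adjusted p = 8.91e-13). These bounds hold for the main processing only. Under other settings the smallest log2 changes of Dnajc28, Cbx8 and Zkscan4 were -2.14, -1.98 and -1.41.

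**Figure D2:**
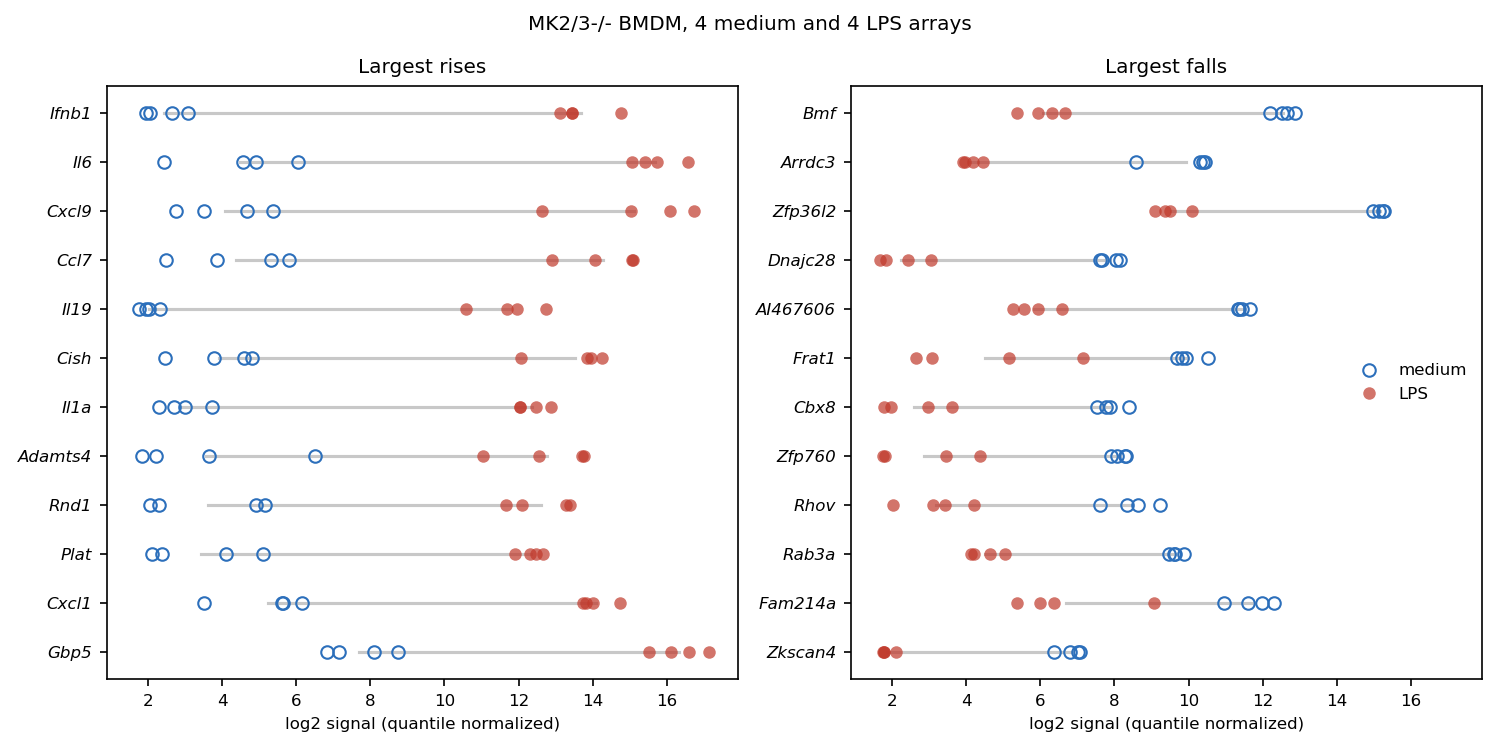
Log2 signal (quantile normalized, horizontal axes) of the 12 named genes with the largest rise and the 12 with the largest fall in MK2/3-/- BMDM, 1 point per array, open for medium and filled for LPS, with grey lines that join the group means. The LPS arrays of each gene lie wholly on one side of the medium arrays, and they spread most for Frat1 and Fam214a among the falls.

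Genes were then grouped into 39 lists by function. Each list is described by the number of its measured members that passed the test in each direction and by its median change, to be read against 11.9% of all genes that rose, 12.9% that fell and a median of -0.02. The median change of the same members in wt BMDM is set beside it. Members were named by rule, and those named beside it to complete a family or an account, Aldoa, Bad, Bcl2a1d, Bcl2l1, Bcl2l11, Casp4, Ccl11, Cd14, Cdc42, Chuk, Cx3cl1, Cxcl12, Cxcl13, Eno1, Gapdh, Gbp9, Il1rn, Il23a, Irf7, Jak1, Ldha, Myd88, Nfkb2, Nlrp3, Oas2, Pf4, Pgam1, Pkm, Rela, Relb, Rhoa, Stat2, Ticam1, Ticam2, Tlr13, Tlr5, Tlr6, Tlr7, Tlr8, Tlr9, Tnfrsf1a, Tnfrsf1b and Tyk2, were chosen after their values were seen.

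**Figure D3:**
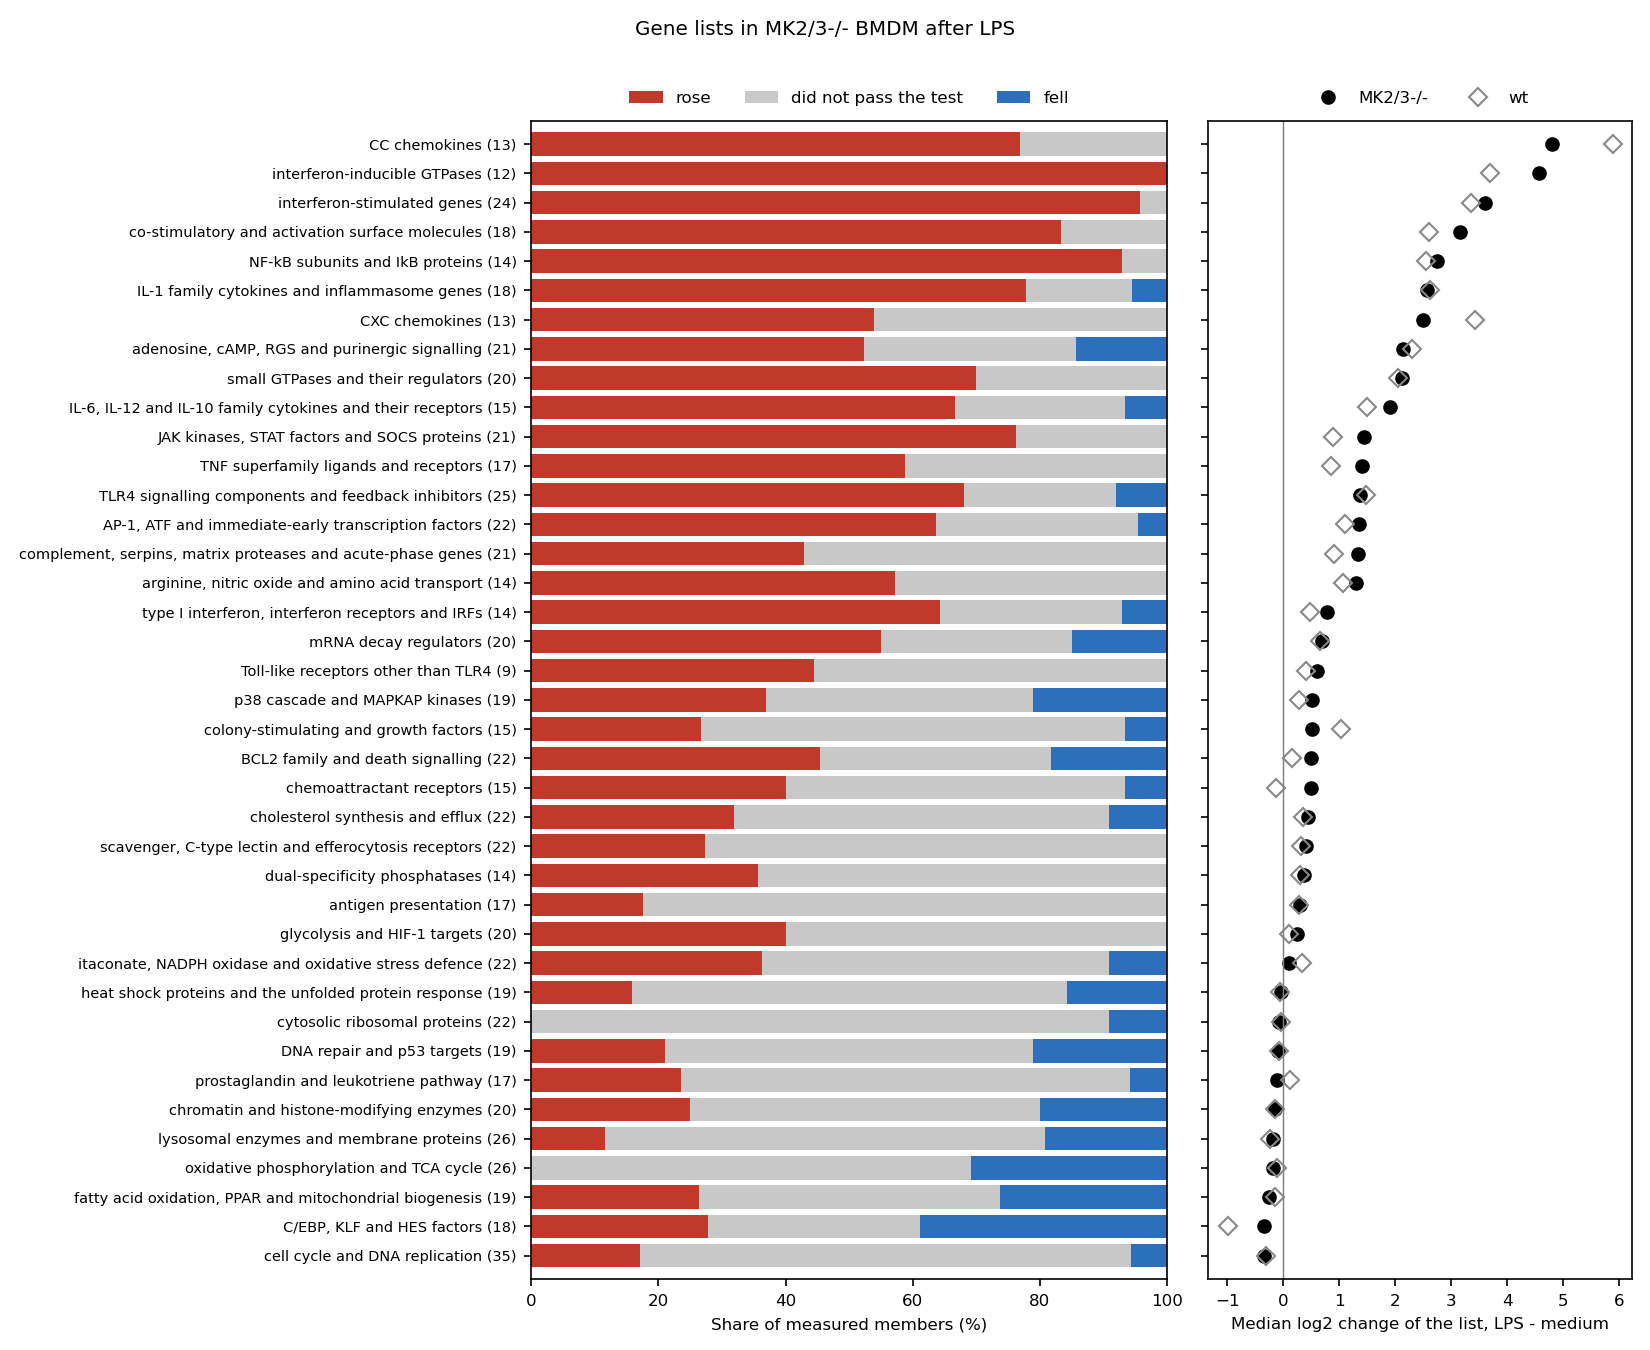
Left, share of the measured members of each list (%, number measured in brackets) that rose, fell or did not pass the test in MK2/3-/- BMDM. Right, median log2 change of each list in MK2/3-/- (filled circles) and wt BMDM (open diamonds). The lists with medians above 2 are those of CC and CXC chemokines, interferon-inducible GTPases, interferon-stimulated genes, co-stimulatory molecules, NF-kB proteins, the IL-1 family, adenosine and cAMP signals and small GTPases, and lists of metabolism and cell division stand near 0.

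Among secreted mediators, chemokines responded widely. Of the CC chemokines, 10 of 13 measured members rose and 0 fell (median 4.79, 5.88 in wt). Ccl2, the main attractant of monocytes, rose from 7.47, 8.68, 6.43 and 7.76 to 16.76, 16.51, 15.26 and 16.08 (8.57 ± 0.61 SE, adjusted p = 3.81e-09). Ccl12, its mouse relative, rose from 4.32, 4.55, 2.18 and 4.36 to 12.26, 12.97, 12.06 and 11.88 (8.44 ± 0.50 SE, adjusted p = 3.21e-10), with medium replicate 3 the lowest. Ccl3, also called MIP-1 alpha, was already bright in medium (13.16, 13.08, 12.37 and 12.05) and rose to 17.78, 17.85, 17.62 and 17.52 (5.03 ± 0.32 SE, adjusted p = 8.86e-10). Of the CXC chemokines and the fractalkine gene Cx3cl1, 7 of 13 measured members rose and 0 fell (median 2.49, 3.43 in wt). Cxcl3, a ligand of the neutrophil receptor CXCR2, rose by 7.93 ± 1.00 SE, adjusted p = 5.88e-06. Cxcl2, another of these ligands, rose by 6.22 ± 0.45 SE, adjusted p = 5.06e-09, and Cxcl10, an interferon-induced attractant of T cells, by 7.14 ± 0.34 SE, adjusted p = 1.67e-11. The members of both lists that did not pass include Cxcl12, Cxcl13, Pf4 and Ccl11, with changes from -0.35 to 0.29 over all 9. Of the chemoattractant receptors, 6 of 15 measured members rose and 1 fell (median 0.49, -0.13 in wt). The decoy receptor Ccrl2 rose by 6.34 ± 0.27 SE, adjusted p = 3.81e-12, and the formyl peptide receptors Fpr2 and Fpr1, which sense bacterial peptides, by 6.30 and 5.32. Cxcr4, the receptor for CXCL12, was the member that fell, from 12.67, 12.24, 11.92 and 12.04 to 7.88, 7.08, 7.86 and 10.02 (-4.01 ± 0.71 SE, adjusted p = 0.000259), with LPS replicate 4 nearest to medium. Ccr2, the CCL2 receptor, had a change of -1.10 ± 0.48 SE, adjusted p = 0.108 and did not pass, but did without medium replicate 3 (adjusted p = 0.0275). The fractalkine receptor Cx3cr1 changed by -0.72 ± 0.30 SE, adjusted p = 0.09 and did not pass.

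Most members of the interleukin lists rose. In the IL-1 family with the inflammasome genes, 14 of 18 measured members rose and 1 fell (median 2.57, 2.62 in wt). Il1b, which encodes the IL-1 beta precursor, rose from 11.74, 10.81, 9.48 and 9.94 to 17.48, 17.63, 17.32 and 17.69 (7.04 ± 0.39 SE, adjusted p = 1.38e-10). Il33, an alarmin of the same family, was well above background on no medium array and was at least 19.4-fold higher after LPS (adjusted p = 3.38e-10). That bound holds for the main processing, and the smallest log2 change of Il33 under other settings was 2.56. The inflammasome sensor Nlrp3 rose by 4.39, Casp4, the caspase that binds intracellular LPS, by 3.16, and the receptor antagonist Il1rn by 4.83. Pycard, the inflammasome adaptor ASC, was the member that fell, by 0.60 (adjusted p = 0.0287), and its call was lost without LPS replicate 4 (adjusted p = 0.0958), without medium replicate 1 (adjusted p = 0.0952) and without medium replicate 2 (adjusted p = 0.0537). For the IL-6, IL-12 and IL-10 families and their receptors, 10 of 15 measured members rose and 1 fell (median 1.91, 1.5 in wt). Beside Il6 and Il19, Clcf1, a cytokine of the IL-6 family, rose by 5.47 ± 0.48 SE, adjusted p = 5.45e-08, and Il23a, the p19 subunit of IL-23, by 4.96. Il10, the gene of the main anti-inflammatory cytokine of macrophages, was at 5.54, 6.45, 6.23 and 6.36 in medium and 7.35, 9.22, 8.16 and 9.07 after LPS (2.31 ± 0.47 SE, adjusted p = 0.000947). The Il10 groups did not overlap, and the change was set against 5.85 in wt BMDM below. Il6ra, the ligand-binding chain of the IL-6 receptor, fell by 1.31 (adjusted p = 0.00394).

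TNF and its relatives rose without an opposing member. Of the TNF superfamily, 10 of 17 measured members rose and 0 fell (median 1.40, 0.85 in wt). Tnf rose from 10.80, 10.48, 8.90 and 9.97 to 16.62, 17.12, 16.86 and 17.47 (6.98 ± 0.37 SE, adjusted p = 7.65e-11). Tnfsf9, the ligand of the T cell receptor 4-1BB, rose by 7.79 ± 0.37 SE, adjusted p = 1.67e-11, and Cd40, the receptor for a T cell signal, by 7.48 ± 0.32 SE, adjusted p = 3.74e-12. The receptor genes Tnfrsf1b and Tnfrsf1a rose less, by 1.92 and 0.85. Of the colony-stimulating and growth factors, 4 of 15 measured members rose and 1 fell (median 0.50, 1.03 in wt). Edn1, the vasoconstrictor endothelin-1, rose by 7.70 ± 1.02 SE, adjusted p = 1.05e-05. Csf2, the gene of GM-CSF, was not well above background in medium and reached 7.64, 8.27, 8.99 and 9.18 after LPS, at least 27.6-fold higher (adjusted p = 7.44e-09). That bound holds for the main processing, and the smallest log2 change of Csf2 under other settings was 2.67. Csf1, the gene of M-CSF, rose by 4.47 ± 0.92 SE, adjusted p = 0.00104. Csf3, the gene of G-CSF, showed 2.34, 2.92, 2.18 and 8.75 after LPS, and LPS replicate 4 was its sole array well above background. Its change did not pass (adjusted p = 0.117). It did without LPS replicate 3 (adjusted p = 0.0484), a setting that keeps the high value of replicate 4. Under the alternative settings the Csf3 change ranged from 0.49 to 2.67. In wt BMDM, all 4 LPS arrays were well above background for Csf3, at 4.83 to 5.64. Vegfa, the gene of an angiogenic factor, fell by 1.46 (adjusted p = 0.0165) with overlapping groups, a call that was lost without LPS replicate 2 (adjusted p = 0.055) and without medium replicate 1 (adjusted p = 0.056).

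The pathway that carries the LPS signal changed at many points. Of the TLR4 signalling components and feedback inhibitors, 17 of 25 measured members rose and 2 fell (median 1.37, 1.47 in wt). Tnfaip3, the ubiquitin-editing enzyme A20 that shuts off NF-kB, rose from 10.58, 10.47, 9.92 and 10.35 to 17.25, 17.32, 16.56 and 16.80 (6.66 ± 0.23 SE, adjusted p = 1.95e-13). The adaptor Traf1 rose by 4.83 ± 0.27 SE, adjusted p = 1.25e-10 and Tnip3, a partner of A20, by 4.50 ± 0.24 SE, adjusted p = 7.65e-11. The adaptor genes Myd88, Ticam2 (TRAM) and Ticam1 (TRIF) rose by 2.27, 1.92 and 1.07, and the co-receptor Cd14 by 1.66. Tlr4 itself was at 11.49, 11.81, 11.18 and 10.93 in medium and 10.69, 10.88, 10.70 and 10.19 after LPS, a fall of 0.74 (adjusted p = 0.0145) that was lost without LPS replicate 4 (adjusted p = 0.052) and without medium replicate 2 (adjusted p = 0.061). Otulin, a deubiquitinase of linear ubiquitin chains, fell by 0.83 (adjusted p = 0.000227). Among the other Toll-like receptors, 4 of 9 measured members rose and 0 fell (median 0.60, 0.40 in wt). These were Tlr2 (2.69 ± 0.17 SE, adjusted p = 9e-10), a receptor for bacterial lipopeptides, its partners Tlr1 (1.90) and Tlr6 (1.63), and Tlr3 (1.82), a receptor for double-stranded RNA. Tlr5, Tlr7, Tlr8, Tlr9 and Tlr13 did not pass, with changes from -0.56 to 0.60.

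Genes of NF-kB and its inhibitors rose almost without exception. Of this list, 13 of 14 measured members rose and 0 fell, with the kinase gene Chuk as the member that did not pass (median 2.74, 2.55 in wt). Nfkbiz, an atypical IkB protein that is needed for secondary response genes, rose from 8.77, 9.24, 7.86 and 8.49 to 14.06, 13.72, 12.55 and 14.30 (5.07 ± 0.38 SE, adjusted p = 8.21e-09). Nfkbia, the gene of the classical inhibitor IkB alpha, was bright in medium (14.80, 15.01, 14.50 and 14.78) and after LPS (18.21, 18.16, 18.15 and 17.85) and rose by 3.32 ± 0.14 SE, adjusted p = 2.21e-12. In neither gene did the groups overlap. Nfkbib, the gene of IkB beta, rose by 4.38 ± 0.27 SE, adjusted p = 6e-10. The subunit genes Rel, Nfkb2, Nfkb1, Relb and Rela rose by 4.56, 3.01, 2.24, 2.14 and 1.65.

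Interferon genes and their targets are given next. Of the genes of type I interferons, interferon receptors and IRFs, 9 of 14 measured members rose and 1 fell (median 0.78, 0.47 in wt). Irf1, a transcription factor of the interferon response, was well above background on no medium array with the probe used and was at least 27.6-fold higher after LPS (adjusted p = 2.39e-08). That bound holds for the main processing, and the smallest log2 change of Irf1 under other settings was 2.41. Irf4 rose by 3.34 ± 0.66 SE, adjusted p = 0.000714. Ifngr2, a chain of the receptor for interferon gamma, was the member that fell, by 0.71 (adjusted p = 0.00122), a call lost with 75th percentile scaling (adjusted p = 0.117). Irf7, which amplifies the interferon response, had a change of 1.29 ± 0.66 SE, adjusted p = 0.178 and did not pass. Of the interferon-stimulated genes, 23 of 24 measured members rose and 0 fell (median 3.60, 3.35 in wt), and Oas2 was the member that did not pass (adjusted p = 0.0686). Rsad2, the antiviral enzyme viperin, rose from 10.69, 9.69, 9.38 and 9.01 to 17.88, 18.08, 17.56 and 16.66 (7.85 ± 0.50 SE, adjusted p = 8.31e-10). Ifit1, which binds foreign RNA, rose from 10.36, 9.69, 8.82 and 8.72 to 16.79, 16.94, 16.40 and 15.96 (7.12 ± 0.46 SE, adjusted p = 9.15e-10). In both genes LPS replicate 4 was the lowest LPS array. Cmpk2, a mitochondrial nucleotide kinase, rose by 6.83 ± 0.64 SE, adjusted p = 1.27e-07 and Isg15, a ubiquitin-like modifier, by 5.37 ± 0.36 SE, adjusted p = 1.79e-09. Leaving out single arrays moved the number of these genes that rose between 18 and 24. All 12 interferon-inducible GTPases, which attack the vacuoles of intracellular microbes, rose (median 4.56, 3.68 in wt). After Gbp5, the largest of these rises were those of Iigp1 (6.99 ± 1.15 SE, adjusted p = 0.000117) and Gbp2 (5.73 ± 0.49 SE, adjusted p = 4.38e-08), and Gbp9 had the smallest (2.38). Irgm1, a regulator of autophagy in these vacuoles, rose by 3.64 ± 0.48 SE, adjusted p = 1.12e-05.

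Cytokine signal transducers rose as well. Of the JAK kinases, STAT factors and SOCS proteins, 16 of 21 measured members rose and 0 fell (median 1.44, 0.89 in wt). Next to Cish, the inhibitor Socs1 rose from 6.37, 7.11, 5.59 and 6.04 to 15.00, 15.36, 14.96 and 13.31 (8.38 ± 0.50 SE, adjusted p = 3.21e-10). Socs3, which limits the signal of the IL-6 receptor, rose from 10.13, 9.77, 9.29 and 10.10 to 17.86, 17.79, 17.62 and 16.90 (7.72 ± 0.26 SE, adjusted p = 1.34e-13). These inhibitors lay well apart between treatments. Jak2 rose by 3.61 ± 0.22 SE, adjusted p = 3.51e-10, and Stat3, the factor downstream of IL-6 and IL-10, by 1.42 ± 0.37 SE, adjusted p = 0.00674. Stat2, a factor downstream of interferons, rose by 1.46 with overlapping groups, whereas Jak1 and Tyk2 did not pass (0.40 and 0.41).

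Transcription factors split by family. Of the AP-1, ATF and immediate-early factors, 14 of 22 measured members rose and 1 fell (median 1.35, 1.11 in wt). Maff, a small Maf protein, rose from 6.50, 7.08, 6.95 and 7.40 to 11.59, 12.34, 12.21 and 12.65 (5.21 ± 0.36 SE, adjusted p = 2.31e-09). Nr4a3, an orphan nuclear receptor, was well above background on no medium array and was at least 8.54-fold higher after LPS (adjusted p = 8.34e-06). That bound holds for the main processing, and the smallest log2 change of Nr4a3 under other settings was 1.61. Ier3, a regulator of cell survival, rose by 3.27 ± 0.41 SE, adjusted p = 6.39e-06. Fos, the AP-1 subunit that is a textbook immediate-early gene, was the member that fell, from 13.47, 13.23, 12.06 and 12.67 to 9.35, 10.02, 9.62 and 10.28 (-3.04 ± 0.35 SE, adjusted p = 1.84e-06). Jun did not pass (0.28 ± 0.43 SE, adjusted p = 0.718). The C/EBP, KLF and HES factors and their relatives moved both ways, as 5 of 18 measured members rose and 7 fell (median -0.35, -1.0 in wt). Klf7 rose by 4.70 ± 0.22 SE, adjusted p = 1.67e-11, Bhlhe40 by 2.15 and Klf6 by 1.86. Cebpa, a factor of myeloid differentiation, fell from 12.22, 13.04, 12.51 and 12.72 to 8.02, 8.49, 9.24 and 9.94 (-3.70 ± 0.42 SE, adjusted p = 1.69e-06). Hes1, a repressor downstream of Notch, was well above background on no LPS array and was at least 5.37-fold lower (adjusted p = 0.000111). That bound holds for the main processing, and the smallest log2 change of Hes1 under other settings was -1.17. Cebpb, a factor of the acute inflammatory response, changed by 0.48 ± 0.25 SE, adjusted p = 0.196 and did not pass, but rose with arrays scaled to their 75th percentile (0.84, adjusted p = 0.00412).

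The p38 pathway, to which both deleted kinases belong, changed in both directions. Of the p38 cascade and MAPKAP kinases, 7 of 19 measured members rose and 4 fell, the deleted genes included (median 0.50, 0.27 in wt). Gadd45b, an activator of the upstream kinase MEKK4, rose by 4.98 ± 0.29 SE, adjusted p = 2.51e-10. Tab1, which can activate p38 directly, fell from 12.59, 12.42, 12.74 and 12.75 to 8.81, 8.20, 9.06 and 10.27 (-3.54 ± 0.33 SE, adjusted p = 1.24e-07). Mapk14, the gene of p38 alpha, did not pass (-0.26 ± 0.19 SE, adjusted p = 0.381). Gadd45g fell by 1.61 (adjusted p = 0.000676), and Mknk2, a kinase that acts on the cap-binding factor eIF4E, by 1.30 (adjusted p = 0.0151), a call that was lost without LPS replicate 1 (adjusted p = 0.0505) and without LPS replicate 2 (adjusted p = 0.0695). Of the dual-specificity phosphatases, which inactivate MAP kinases, 5 of 14 measured members rose and 0 fell (median 0.37, 0.30 in wt). Dusp2 rose from 10.45, 10.45, 9.05 and 9.62 to 17.91, 17.92, 17.53 and 17.21 (7.75 ± 0.38 SE, adjusted p = 2.48e-11). Dusp14 rose by 5.54 ± 0.77 SE, adjusted p = 1.98e-05, Dusp16, which targets JNK and p38, by 3.98 ± 0.36 SE, adjusted p = 9.66e-08, and Dusp1, the main phosphatase of p38 in macrophages, by 2.36 ± 0.30 SE, adjusted p = 6.38e-06. Dusp6, an ERK phosphatase, did not pass (-0.60 ± 0.51 SE, adjusted p = 0.454).

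Among the regulators of mRNA decay, to which the MK2 substrate tristetraprolin belongs, 11 of 20 measured members rose and 3 fell (median 0.69, 0.65 in wt). Zfp36, the gene of tristetraprolin, was at 9.25, 8.73, 8.98 and 8.63 in medium and 11.35, 11.53, 11.38 and 10.42 after LPS (2.27 ± 0.35 SE, adjusted p = 6.7e-05), with LPS replicate 4 about 1 unit below the others. Its relatives moved the other way. Zfp36l1 fell from 13.18, 13.64, 13.73 and 13.63 to 10.51, 10.31, 10.33 and 11.98 (-2.76 ± 0.50 SE, adjusted p = 0.000293), and the fall of Zfp36l2 is given above. Zc3h12a, the endonuclease regnase-1 that cleaves inflammatory mRNAs, rose by 3.68 ± 0.16 SE, adjusted p = 3.81e-12, and its relative Zc3h12c by 3.09 ± 0.21 SE, adjusted p = 2.24e-09. Tia1, a translational silencer of AU-rich mRNAs, fell by 1.11 (adjusted p = 0.00883).

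Of the prostaglandin and leukotriene pathway, 4 of 17 measured members rose and 1 fell (median -0.11, 0.12 in wt). Ptgs2, the inducible cyclooxygenase COX-2, rose from 5.80, 5.82, 6.70 and 8.11 to 15.14, 15.63, 14.59 and 13.89 (8.20 ± 0.74 SE, adjusted p = 8.32e-08). Ptges, the synthase of prostaglandin E2, rose by 4.76 ± 0.59 SE, adjusted p = 5.11e-06 with the probe used here, whereas its brightest probe had a change of -0.85, so that its direction is uncertain. Ptger4, a prostaglandin E2 receptor, rose by 1.60 ± 0.30 SE, adjusted p = 0.000427, the constitutive cyclooxygenase Ptgs1 did not pass (-0.39 ± 0.21 SE, adjusted p = 0.21), and Ptges2 fell by 0.72 (adjusted p = 0.00192). For arginine, nitric oxide and amino acid transport, 8 of 14 measured members rose and 0 fell (median 1.30, 1.06 in wt). Nos2, the inducible nitric oxide synthase, was at 8.06, 7.72, 8.18 and 7.94 in medium and 12.39, 13.28, 12.75 and 9.17 after LPS (3.92 ± 0.81 SE, adjusted p = 0.00111), with LPS replicate 4 more than 3 units below the others. Hdc, the enzyme that makes histamine, rose by 6.35 ± 0.71 SE, adjusted p = 1.4e-06, the cystine transporter Slc7a11 by 5.42 ± 0.63 SE, adjusted p = 2.38e-06 and the arginine transporter Slc7a2 by 3.49 ± 0.43 SE, adjusted p = 4.1e-06. For itaconate, the NADPH oxidase and oxidative stress defence, 8 of 22 measured members rose and 2 fell (median 0.09, 0.34 in wt). Acod1, the enzyme that makes itaconate from the citrate cycle, rose from 12.39, 10.57, 8.98 and 9.83 to 18.62, 18.49, 18.74 and 18.31 (8.10 ± 0.46 SE, adjusted p = 1.54e-10). The metallothionein Mt2 rose by 3.52 ± 0.33 SE, adjusted p = 1.18e-07 and Sod2, the mitochondrial superoxide dismutase, by 2.71 ± 0.22 SE, adjusted p = 2.4e-08. Hmox1 (heme oxygenase-1) fell by 1.31 (adjusted p = 0.0362) and Gclm (glutathione synthesis) by 0.53 (adjusted p = 0.0328), both with overlapping groups. The Hmox1 call was lost without LPS replicate 1 (adjusted p = 0.0538), without LPS replicate 3 (adjusted p = 0.134), without LPS replicate 4 (adjusted p = 0.0646), without medium replicate 2 (adjusted p = 0.118) and without medium replicate 4 (adjusted p = 0.0793), and the Gclm call was lost without each of 6 single arrays (adjusted p up to 0.101).

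Surface molecules by which macrophages engage lymphocytes rose. Of the co-stimulatory and activation molecules, 15 of 18 measured members rose and 0 fell (median 3.16, 2.60 in wt). Cd69, an early activation antigen, rose from 7.80, 7.30, 7.03 and 6.99 to 16.35, 16.61, 15.77 and 14.35 (8.49 ± 0.48 SE, adjusted p = 1.65e-10). The adhesion molecules Vcam1 and Icam1 rose by 7.41 ± 0.85 SE, adjusted p = 1.98e-06 and by 5.71 ± 0.25 SE, adjusted p = 4.23e-12. Cd86, a ligand of CD28, rose by 1.13 ± 0.23 SE, adjusted p = 0.00108. For Cd80, another CD28 ligand, the probe used rose by 4.29 ± 0.42 SE, adjusted p = 2.61e-07 and the brightest probe had a change of -1.25, so that its direction is uncertain. Beside these genes, the dendritic cell marker Zbtb46 rose by 5.77. Of the 6 dendritic cell markers, 1 rose and 0 fell, and their summed level is given above. Antigen presentation changed little, as 3 of 17 measured members rose and 0 fell (median 0.29, 0.27 in wt). Nlrc5, an activator of MHC class I genes, rose by 2.00 ± 0.52 SE, adjusted p = 0.00695 with overlapping groups (1.17 at its brightest probe, not passed), and the chaperone Tapbp by 0.93 ± 0.21 SE, adjusted p = 0.00242. The peptide transporter Tap1 rose by 1.71 ± 0.50 SE, adjusted p = 0.0164, a call that was lost without LPS replicate 1 (adjusted p = 0.0646) and without LPS replicate 2 (adjusted p = 0.0718). H2-K1 (MHC class I) changed by 0.19 ± 0.17 SE, adjusted p = 0.492 and H2-Aa (MHC class II) by -0.26 ± 1.24 SE, adjusted p = 0.926, and neither passed. Of the scavenger, C-type lectin and efferocytosis receptors, 6 of 22 measured members rose and 0 fell (median 0.39, 0.32 in wt). Olr1, a receptor for oxidized LDL, rose by 7.91 ± 0.47 SE, adjusted p = 3.15e-10, Clec4e, the receptor Mincle for mycobacterial glycolipids, by 4.68 ± 0.35 SE, adjusted p = 7.7e-09, and Msr1, the scavenger receptor A, by 2.66 ± 0.33 SE, adjusted p = 5.53e-06. Cd36 did not pass (-0.11 ± 0.35 SE, adjusted p = 0.879).

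Of the genes of complement, serpins, matrix proteases and the acute phase, 9 of 21 measured members rose and 0 fell (median 1.33, 0.90 in wt). Mmp13, a collagenase, rose from 9.40, 9.14, 9.16 and 9.17 to 15.40, 16.24, 15.24 and 13.92 (5.98 ± 0.41 SE, adjusted p = 1.85e-09). Serpinb2, an inhibitor of plasminogen activators, rose by 6.34 ± 1.14 SE, adjusted p = 0.000303 and the serpin Serpina3f by 5.87 ± 0.90 SE, adjusted p = 5.73e-05. C3, the central complement component, rose by 2.45 ± 0.62 SE, adjusted p = 0.0055, with overlapping groups, and C1qa did not pass (-0.04 ± 0.50 SE, adjusted p = 0.969). Fibroblast markers were highest in replicate 4 under both treatments. Within the LPS group, Mmp13 was lowest in replicate 4, and Csf3, given above, was highest in it (8.75). The cells from which these transcripts came were not tested.

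Genes of cell death moved in both directions. Of the list, 10 of 22 measured members rose and 4 fell (median 0.50, 0.15 in wt). Cflar, the gene of the caspase-8 inhibitor c-FLIP, rose from 9.24, 9.63, 9.07 and 9.09 to 14.84, 15.29, 14.87 and 14.65 (5.66 ± 0.24 SE, adjusted p = 3.81e-12). Ripk2, the kinase of the NOD receptors, rose by 4.77 ± 0.33 SE, adjusted p = 2.32e-09. The anti-apoptotic genes Bcl2a1d and Bcl2l1 rose by 3.79 and 3.00, and so did the pro-apoptotic Bcl2l11 (Bim) by 3.55. Bcl2 did not pass (-0.08 ± 0.43 SE, adjusted p = 0.93), and Mcl1 rose by 0.91 ± 0.25 SE, adjusted p = 0.00948 with the probe used, whereas its brightest probe had a change of -0.29. The members that fell were Bmf, given above, Bid (-0.98, adjusted p = 0.0189), Bax (-0.78, adjusted p = 0.000118) and Bad (-0.64), all of which promote apoptosis. The Bid call was lost without LPS replicate 3 (adjusted p = 0.0607), and the Bax call with 75th percentile scaling (adjusted p = 0.0601). Without medium replicates 1 and 2, the number that fell was 2.

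Signals of adenosine, cAMP and G proteins and of small GTPases rose at many members. Of the former list, 11 of 21 measured members rose and 3 fell (median 2.14, 2.30 in wt). Gem, a GTPase that inhibits calcium channels, rose from 3.39, 2.05, 2.11 and 4.38 to 11.33, 11.38, 10.94 and 11.88 (8.40 ± 0.49 SE, adjusted p = 2.27e-10). The adenosine receptors Adora2a and Adora2b, which raise cAMP, rose by 7.09 ± 0.47 SE, adjusted p = 1.2e-09 and by 3.38 ± 0.31 SE, adjusted p = 1.11e-07, and Hcar2, a receptor for niacin and ketone bodies, by 6.64 ± 0.42 SE, adjusted p = 6.19e-10. Rgs2, a brake on Gq signals, fell from 8.18, 8.88, 9.24 and 8.97 to 6.38, 6.07, 5.11 and 5.55 (-3.04 ± 0.45 SE, adjusted p = 3.93e-05). P2ry6, a receptor for UDP, fell by 1.12 (adjusted p = 0.00143), and Rgs18 by 0.93 (adjusted p = 0.0371) with overlapping groups, a call lost without LPS replicate 2 (adjusted p = 0.0549), without LPS replicate 3 (adjusted p = 0.138), without LPS replicate 4 (adjusted p = 0.0857), without medium replicate 1 (adjusted p = 0.105) and without medium replicate 2 (adjusted p = 0.1). Of the small GTPases and their regulators, 14 of 20 measured members rose and 0 fell (median 2.11, 2.05 in wt). After Rnd1, the exchange factor Rasgrp1 rose by 5.04 ± 0.41 SE, adjusted p = 1.85e-08, Rab11fip1, an effector of recycling endosomes, by 4.59 ± 0.30 SE, adjusted p = 1.38e-09 and Rhob by 1.39 ± 0.38 SE, adjusted p = 0.00952 (0.71 at its brightest probe, not passed). The housekeeping members Rhoa, Cdc42 and Rac1 did not pass (0.08, 0.15 and -0.27).

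Metabolic genes changed less. Among genes of glycolysis and HIF-1 targets, 8 of 20 measured members rose and 0 fell (median 0.24, 0.10 in wt). Adm, the vasodilator adrenomedullin, rose by 4.37 ± 0.89 SE, adjusted p = 0.000961 and Pfkfb3, which makes the activator of phosphofructokinase, by 3.20 ± 0.33 SE, adjusted p = 4.49e-07. The glucose transporters Slc2a6 and Slc2a1 rose by 2.58 ± 0.32 SE, adjusted p = 5.43e-06 and by 1.64 ± 0.25 SE, adjusted p = 5.28e-05, and Hif1a by 1.76 ± 0.17 SE, adjusted p = 1.48e-07. The glycolytic enzymes Gapdh, Ldha, Aldoa, Eno1, Pkm and Pgam1 did not pass, with changes from -0.42 to 0.01. Without medium replicates 1 and 2, 5 members of the list rose. Of the genes of oxidative phosphorylation and the TCA cycle, 0 of 26 measured members rose and 8 fell (median -0.18, -0.12 in wt). Fh1, which encodes fumarase, fell by 0.69 (adjusted p = 0.0025), and the other falls were of 0.34 to 0.54. With arrays scaled to their 75th percentile none of them fell (1 rose), and leaving out single arrays left 3 to 7, the lowest number without LPS replicate 2. Ndufa4 did not pass (-0.17 ± 0.19 SE, adjusted p = 0.594). Sdhb, a subunit of succinate dehydrogenase (-0.39), Mdh1 (malate dehydrogenase, -0.54) and Ndufb8 (a complex I subunit, -0.50) passed but lost their calls when single arrays were left out (adjusted p up to 0.0977, 0.0791 and 0.0715).

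Of the genes of fatty acid oxidation, PPAR and mitochondrial biogenesis, 5 of 19 measured members rose and 5 fell (median -0.26, -0.16 in wt). Fabp4, a fatty acid-binding protein, rose by 1.72 ± 0.48 SE, adjusted p = 0.011. Pparg, the nuclear receptor of lipid storage, fell by 1.30 (adjusted p = 0.00434) with overlapping groups, and Cpt2, which brings fatty acids into mitochondria, by 1.27 (adjusted p = 0.0033). Acadm, an acyl-CoA dehydrogenase, fell by 0.70 (adjusted p = 0.014), a call lost without LPS replicate 2 (adjusted p = 0.0652) and without medium replicate 3 (adjusted p = 0.0519). Cpt1a did not pass (-0.54 ± 0.22 SE, adjusted p = 0.0855) but did without LPS replicate 4 (adjusted p = 0.044). Leaving out single arrays moved the number of these genes that rose from 2 to 6 and that fell from 2 to 6. For cholesterol synthesis and efflux, 7 of 22 measured members rose and 2 fell (median 0.44, 0.34 in wt). Insig1, a feedback regulator of sterol synthesis, rose by 2.20 ± 0.41 SE, adjusted p = 0.000402. The members that fell were LXR targets. Mylip, a ubiquitin ligase, fell by 1.14 (adjusted p = 0.0205), and the cholesterol exporter Abcg1 fell by 1.07 (adjusted p = 0.014) with overlapping groups. The Mylip call was lost without LPS replicate 3 (adjusted p = 0.0825) and without medium replicate 2 (adjusted p = 0.0558), and that of Abcg1 without LPS replicate 3 (adjusted p = 0.0526) and without medium replicate 2 (adjusted p = 0.062). Abca1, the other exporter, did not pass (0.61 ± 0.36 SE, adjusted p = 0.246).

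Of the lysosomal genes, 3 of 26 measured members rose and 5 fell (median -0.18, -0.23 in wt). The members of the MiT/TFE family of transcription factors moved apart. Tfeb fell from 10.10, 9.84, 9.57 and 9.58 to 6.92, 5.86, 7.31 and 8.82 (-2.55 ± 0.58 SE, adjusted p = 0.00269), again with LPS replicate 4 nearest to medium. Tfec rose by 5.05 ± 0.21 SE, adjusted p = 2.21e-12 and Tfe3 by 1.02 ± 0.27 SE, adjusted p = 0.00828, whereas its brightest probe had a change of 0.35 that did not pass. Mitf rose by 1.15 ± 0.36 SE, adjusted p = 0.0245, a call lost without LPS replicate 2 (adjusted p = 0.0805), without LPS replicate 3 (adjusted p = 0.0738), without medium replicate 3 (adjusted p = 0.0822) and without medium replicate 4 (adjusted p = 0.0782). The membrane protein Lamp1 and the protease Ctsd did not pass (-0.18 and -0.05). With arrays scaled to their 75th percentile 1 of the lysosomal genes fell, as did 2 without LPS replicate 2. Of the cytosolic ribosomal proteins, 0 of 22 measured members rose and 2 fell (median -0.07, -0.05 in wt), namely Rps19 (-0.63, adjusted p = 0.00318) and Rps18 (-0.60, adjusted p = 0.00256), which did not fall with 75th percentile scaling. Rpl3 and Rps3 did not pass (-0.13 and 0.29). Of the heat shock proteins and the unfolded protein response, 3 of 19 measured members rose and 3 fell (median -0.04, -0.06 in wt). Hspa1a, an inducible HSP70, rose by 4.42 ± 0.59 SE, adjusted p = 1.26e-05, and the co-chaperone Dnaja1 by 1.81 ± 0.26 SE, adjusted p = 3.08e-05, and the small heat shock protein gene Hspb1 had a change of -0.13 ± 1.39 SE, adjusted p = 0.966, while Dnajb1 fell by 1.18 (adjusted p = 2.18e-06). Ddit3, the stress factor CHOP, fell by 1.15 (adjusted p = 0.0183), a call lost without LPS replicate 3 (adjusted p = 0.0785) and without medium replicate 2 (adjusted p = 0.0585). Ern1, the sensor IRE1 alpha, fell by 0.66 (adjusted p = 0.0429) with overlapping groups, a call lost without LPS replicate 1 (adjusted p = 0.122), without LPS replicate 2 (adjusted p = 0.113), without medium replicate 1 (adjusted p = 0.156), without medium replicate 2 (adjusted p = 0.0514) and without medium replicate 3 (adjusted p = 0.0629).

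Genes of division and genome maintenance moved in both directions. Of the cell cycle and DNA replication genes, 6 of 35 measured members rose and 2 fell (median -0.35, -0.31 in wt). Ccnd2, the gene of cyclin D2, rose from 8.97, 8.18, 8.17 and 9.56 to 14.49, 14.48, 13.15 and 12.56 (4.95 ± 0.67 SE, adjusted p = 1.31e-05). The inhibitor of cyclin-dependent kinases Cdkn1a (p21) rose by 4.11 ± 0.24 SE, adjusted p = 2.99e-10, so that genes of both an activator and an inhibitor of the cycle rose. E2f2, a transcription factor of the cycle, fell from 12.72, 12.13, 13.16 and 13.11 to 8.84, 7.21, 9.81 and 11.73 (-3.38 ± 0.85 SE, adjusted p = 0.00533). Mcm4, a subunit of the replicative helicase, fell by 0.56 (adjusted p = 0.0495) with overlapping groups, and lost its call without each of 6 single arrays (adjusted p up to 0.185). Mki67, a marker of dividing cells, rose by 1.76 ± 0.51 SE, adjusted p = 0.0144, which did not pass without medium replicates 1 and 2 (1.35, adjusted p = 0.142), and Ccnd1 did not pass (-1.15 ± 0.70 SE, adjusted p = 0.263). Of the genes of DNA repair and p53 targets, 4 of 19 measured members rose and 4 fell (median -0.10, -0.08 in wt). Ccng2 rose by 1.88 ± 0.29 SE, adjusted p = 6.71e-05 and Trp53 by 1.28 ± 0.22 SE, adjusted p = 0.000199. Sesn1, a stress-induced inhibitor of mTORC1, fell from 13.73, 13.93, 14.10 and 13.62 to 9.90, 8.78, 10.79 and 12.12 (-3.45 ± 0.70 SE, adjusted p = 0.000896). Xpc, which detects DNA lesions, fell by 2.69 (adjusted p = 0.00102) and Sesn2 by 2.05 (adjusted p = 3.57e-05). Of the chromatin and histone-modifying enzymes, 5 of 20 measured members rose and 4 fell (median -0.16, -0.16 in wt), and 2 fell without LPS replicate 2. Kdm6b, a demethylase of histone H3 that is induced in macrophages, rose from 7.44, 7.49, 7.30 and 8.0 to 12.59, 12.78, 13.14 and 13.95 (5.56 ± 0.35 SE, adjusted p = 6.02e-10). Tet2, which oxidizes methylated DNA, rose by 2.64 ± 0.28 SE, adjusted p = 6.4e-07. The DNA methyltransferase Dnmt3a fell by 1.76 (adjusted p = 0.000711) and the histone methyltransferase Setd7 by 1.43 (adjusted p = 0.00896). Hdac5 fell by 0.93 (adjusted p = 0.019), a call lost without LPS replicate 1 (adjusted p = 0.0511) and without LPS replicate 2 (adjusted p = 0.0861). Ezh2 did not pass (-0.11 ± 0.46 SE, adjusted p = 0.909).

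To see where the response of MK2/3-/- BMDM differed, it was set against that of wt BMDM, in which 2148 genes rose (8.26%) and 2312 fell (8.89%). Of the genes that rose in MK2/3-/- BMDM, 1879 also rose in wt BMDM, which is 60.5% of the former and 87.5% of the latter, and 2000 genes fell in both (59.4 and 86.5%). Across the 14291 genes that were well above background throughout at least 1 MK2/3-/- group, the changes of both genotypes correlated with Pearson's r = 0.942 and a Spearman rank correlation of 0.907, where genes are not independent and the 2 genotypes share no arrays. For the 3879 genes called in the same direction in both, the median absolute change was 1.46 in MK2/3-/- and 1.25 in wt BMDM, and it was the larger one in MK2/3-/- BMDM for 71.7% of them. For these shared genes the choice by both tests is part of the numbers, and they are a description.

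The difference between the responses was tested for each gene as an interaction, MK2/3-/- change minus wt change. It passed for 3 of 26014 genes (0.0115%), and 1180 genes had an unadjusted p under 0.05 (4.54%), with 507 positive and 673 negative differences. Grpel2, a mitochondrial co-chaperone, was at 8.95, 8.95, 8.78 and 8.63 in medium and 7.87, 8.04, 7.85 and 7.92 after LPS in MK2/3-/- BMDM, while its mean was 8.66 in medium and 8.99 after LPS in wt BMDM (-1.24 ± 0.15 SE, adjusted p = 0.00439). Its 4 LPS arrays lay below all medium arrays in MK2/3-/- BMDM, and its change in wt BMDM was 0.34. Mapkapk3, given above, fell in MK2/3-/- and had a change of 0.51 in wt BMDM (-1.68 ± 0.24 SE, adjusted p = 0.0113), a difference that concerns a deleted gene. The remaining one was the transcript AK133004, which has no gene name in the reference table. It was at 6.19, 6.25, 5.49 and 5.82 in medium and 5.63, 5.78, 6.08 and 6.21 after LPS, a change of -0.01, compared with 2.19 in wt BMDM (-2.20 ± 0.32 SE, adjusted p = 0.0113). AK133004 did not pass with 75th percentile scaling or without medium replicates 1 and 2, and with only the arrays of the groups compared, Grpel2 was the single gene to pass. Without LPS replicate 4 the number was 19, without wt LPS replicate 3 it was 5, and over the remaining arrays left out 1 at a time it was 3 or 4. As each genotype had its own slide, a difference between responses cannot be told apart from a difference between slides in how medium and LPS arrays relate.

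The genes next in order of p with a more negative change in MK2/3-/- than in wt BMDM did not pass the main test and are given as values. Settings under which some of them passed are given below. Il10 changed by 2.31 in MK2/3-/-, by 4.13 in MK2-/- and by 5.85 in wt BMDM, so that after LPS its 4 MK2/3-/- arrays lay below all wt arrays (difference from wt -3.54 ± 0.66 SE, adjusted p = 0.14). The Il10 gene lies beside the deleted Mapkapk2, and the part of the altered locus in this difference was not tested. Cxcl2 is given here as a lead member of its list and not by its order of p. It reached 12.66, 13.07, 13.26 and 14.02 after LPS with a mean of 15.37 in wt BMDM (difference of changes -2.68 ± 0.64 SE, adjusted p = 0.338). Lig4, the ligase of non-homologous end joining, fell by 2.38 from 8.79, 8.75, 8.68 and 8.67, and had a change of -0.78 in wt BMDM (-1.59 ± 0.27 SE, adjusted p = 0.0781). Cd3eap, a subunit of RNA polymerase I, had changes of -2.74 and -1.10 (-1.64 ± 0.30 SE, adjusted p = 0.14), and Srfbp1, a cofactor of the serum response factor, of -0.22 and 0.90 (-1.12 ± 0.21 SE, adjusted p = 0.14).

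On the other side, genes whose change in MK2/3-/- BMDM lay above that in wt included a homeobox gene. Hhex, a factor of blood cell development, fell from 12.25, 12.12, 11.94 and 12.02 to 10.09, 10.81, 9.59 and 9.19, by 2.16, compared with changes of -4.31 in wt and -3.82 in MK2-/- BMDM (difference from wt 2.15 ± 0.41 SE, adjusted p = 0.14). Tnfsf18, the ligand of the T cell receptor GITR, was well above background on no medium array and was at least 6.67-fold higher after LPS in MK2/3-/- BMDM (adjusted p = 6.38e-08). That bound holds for the main processing, and the smallest log2 change of Tnfsf18 there under other settings was 1.23. Its wt medium arrays were not well above background either, so that no difference of changes is given. Map3k11, a kinase upstream of JNK and p38, had changes of 0.75 and -0.15 (0.91 ± 0.18 SE, adjusted p = 0.176). Gnai3, an inhibitory G protein, had changes of 0.88 and 0.30, Plch2, a phospholipase C, of 1.83 and -0.07, and Tal1, a blood cell transcription factor, of 2.12 and -0.26 (adjusted p of the differences 0.283, 0.283 and 0.303). Plch2 was dim, being well above background on 1 of 4 medium and 3 of 4 LPS arrays of MK2/3-/- BMDM. Its change there was as small as 0.298 under another processing setting. Without LPS replicate 4, the differences of Cd3eap (0.0124), Hhex and Lig4 (0.0278 each), Map3k11 and Srfbp1 (0.0432 each) and Il10 (0.0494) passed, given as adjusted p. Those of Csf3, the more negative in MK2/3-/- BMDM, and Tnfsf18 also passed there (0.00532 each). Neither gene was well above background on any wt or MK2/3-/- medium array. With normexp background correction, those of Cxcl2 (0.0305), Il10, Lig4 and Srfbp1 (0.0489 each) passed, and with the filter on dim probes that of Lig4 (0.0408). With the culture as a random block and all arrays kept, those of Lig4 (0.0176), Il10 (0.0224), Cd3eap and Hhex (0.0316 each), Srfbp1 (0.0389) and Map3k11 (0.045) passed.

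**Figure D4:**
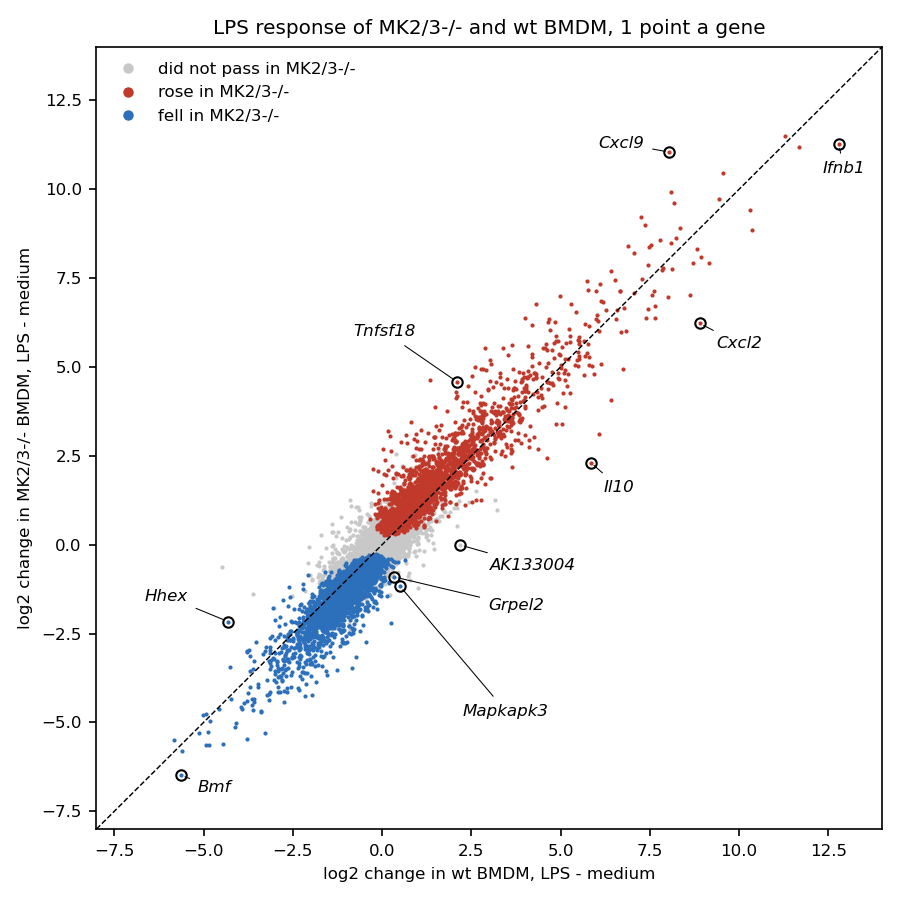
Log2 change, LPS minus medium, in MK2/3-/- BMDM (vertical axis) against that in wt BMDM (horizontal axis), 1 point per gene, with genes that rose (red) or fell (blue) in MK2/3-/- BMDM and equal changes on the dashed line. Points lie along the line, and Il10, Cxcl2, Ifnb1, Grpel2, Mapkapk3 and AK133004 lie below it and Cxcl9 and Hhex above it.

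Between MK2/3-/- and MK2-/- BMDM, which differ in MK3, the interaction passed for 0 of 26014 genes (0%) by limma, with 748 at an unadjusted p under 0.05 (2.88%). Without MK2-/- LPS replicate 3 or MK2-/- medium replicate 2 the number was 1, and without MK2/3-/- medium replicates 1 and 2 it was 5. For the genes above, the difference of Grpel2 was -0.73, adjusted p = 0.723, of Mapkapk3 -1.41, adjusted p = 0.356, of AK133004 -1.27, adjusted p = 1 and of Ifnb1 0.31, adjusted p = 1. Ifnb1 changed by 11.26 in MK2/3-/-, 10.95 in MK2-/- and 12.79 in wt BMDM.

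**Figure D5:**
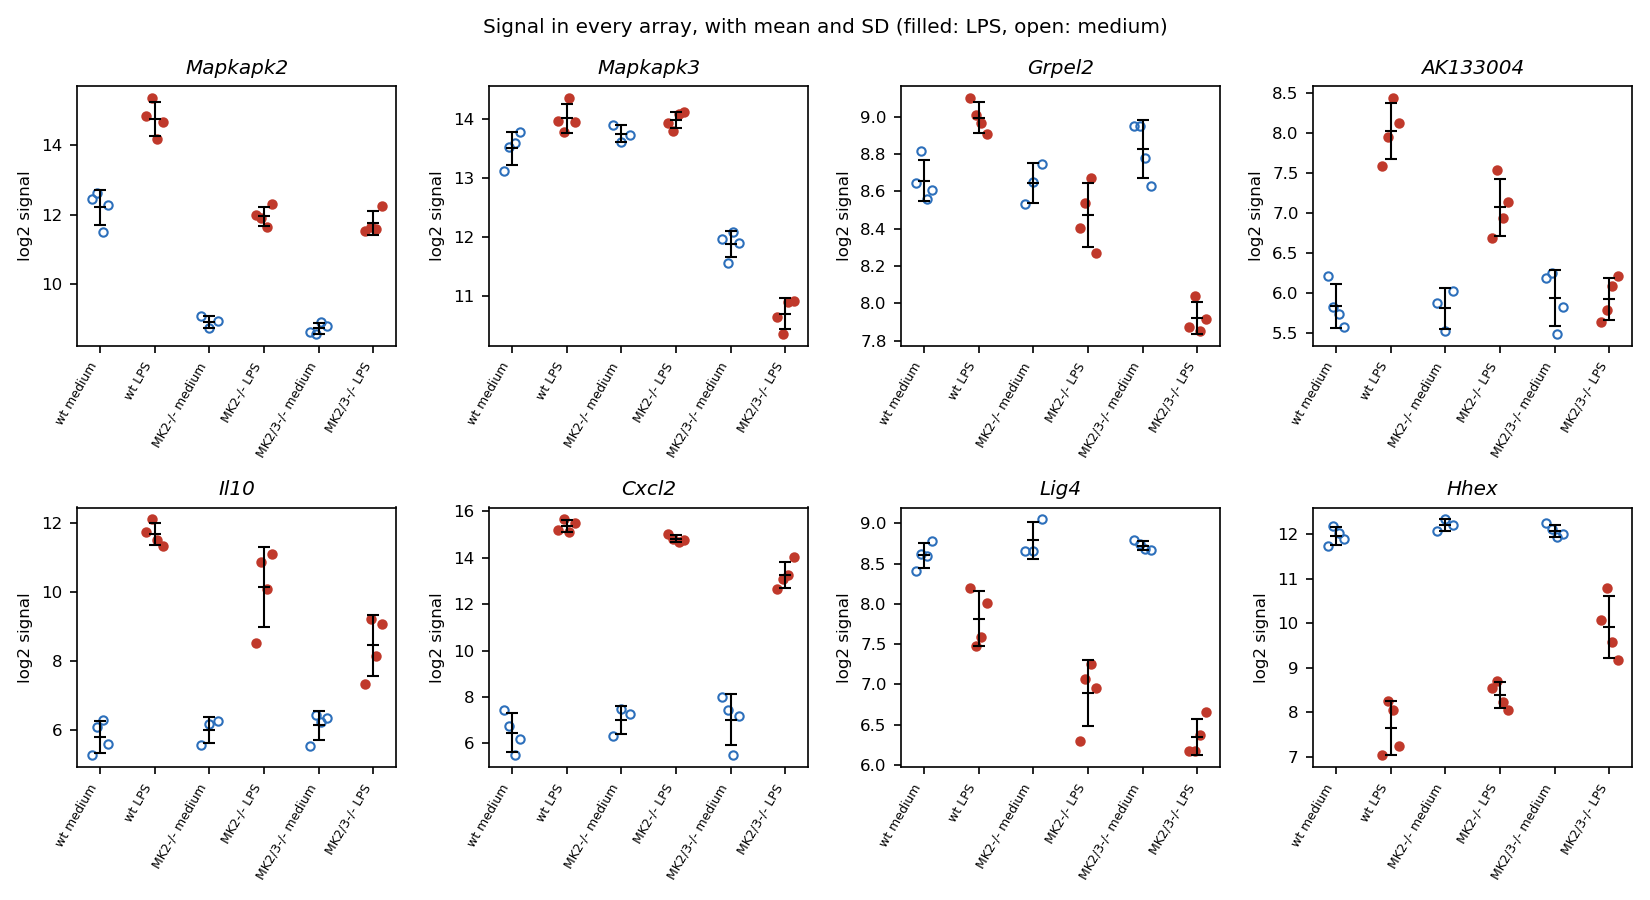
Log2 signal (vertical axes) of 8 genes on every array of the 6 groups, open for medium and filled for LPS, with bars for the mean and SD (n = 4, and n = 3 for MK2-/- medium). The LPS arrays of Grpel2 and Mapkapk3 lie below the medium arrays in MK2/3-/- BMDM, those of AK133004 overlap with them, and Il10 reaches 7.35 to 9.22 after LPS against 11.34 to 12.10 in wt BMDM.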

How the data were processed

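RNA of 23 BMDM samples was hybridized to Agilent one-colour mouse arrays, of which the 8 of MK2/3-/- BMDM are reported here. The authors deposited 1 scanner file per array, made with Feature Extraction 11.0.1.1, with processed signal intensity per spot, and a table of log2 values that equals the quantile-normalized log2 signal minus the median of each probe over the arrays (Pearson's r = 1.00 over 55821 probes). Their genome build in the file headers is mm9, and gene names and promoters were taken from RefSeq on GRCm38.p6. From the deposited intensity values, log2 of the processed signal was quantile normalized across the 23 arrays, control spots and flagged spots were left out, and spots of a probe were averaged. Of 55681 probes, 32885 carried a RefSeq or GenBank accession and stood for 26014 genes, 20886 of them named. Where a gene had more than 1 probe, that with the largest rise in wt BMDM stood for it.

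Genes were tested with limma 3.58.1 in R 4.3.3 (lmFit and eBayes, 6 groups, all 23 arrays) with Benjamini-Hochberg adjustment over 26014 genes at 0.05, and differences between genotypes as interactions. The test was checked on simulated data with independent noise on each array. That check does not cover the correlation between medium and LPS arrays of the same replicate number. A gene was dim in a group when its probe was well above background on no array of it, and its fold is then a lower bound, from the mean of the bright group against, per array, the higher of the lowest signal well above background and the probe's own. Named were the targeted genes, the 12 largest rises and 12 largest falls among called genes that were named, above background throughout a group and separate between groups, for each list its lead members, the 3 called members with the largest change and up to 3 called in the opposite direction, the genes that passed an interaction, and the 6 with the smallest p in each direction of that with wt. The members, the lists and the tests were chosen with earlier results of these data known.

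The methods call the experiments independent, and p-values measure the spread between these cultures. The replicate number was tried as a random block. The other alternatives were scaling to the 75th percentile, normexp background correction (offset 50, on the median signal, the columns used here holding no mean signal), the deposited log2 values, a filter on dim probes, other choices among probes, flagged spots kept, the 8 arrays alone, the methods' t-test and leaving out single arrays. Promoters were searched with Python 3.11.15. A few list members were not matched by name here, and a few named genes are not reported here. No columns hold samples of another series.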

Additional observations from a re-analysis of the deposited data

Results flagged for a closer look

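In 18 of 440 groups of 4 arrays tested, 1 array lay farther from the other 3 than Dixon's criterion allows, where chance gives about 1 in 20. These were log2 signals of named genes in MK2/3-/- BMDM, and 9 of the 18 were in LPS replicate 4. In LPS replicate 4, these were Csf3 at 8.75 (others 2.18 to 2.92), Map3k11 at 11.42 (others 11.75 to 11.80), Mapkapk2 at 12.26 (others 11.54 to 11.65) and Nfkbia at 17.85 (others 18.15 to 18.21). The same array stood apart for Pycard at 12.32 (others 12.82 to 12.91), Vegfa at 8.12 (others 6.81 to 7.03), Zfp36 at 10.42 (others 11.35 to 11.53), Zfp36l1 at 11.98 (others 10.31 to 10.51) and Zkscan4 at 2.12 (others 1.77 to 1.78). In medium replicate 1 these were Arrdc3 at 8.59 (others 10.32 to 10.43), Map3k11 at 11.24 (others 10.82 to 10.85), Mmp13 at 9.40 (others 9.14 to 9.17) and Zfp36l1 at 13.18 (others 13.63 to 13.73). In LPS replicate 3 these were Mylip at 7.06 (others 8.61 to 8.78) and Ndufa4 at 13.86 (others 13.36 to 13.38). In medium replicate 3 these were Ccl12 at 2.18 (others 4.32 to 4.55) and Cebpb at 12.92 (others 13.91 to 14.01). In medium replicate 2 it was Sdhb at 13.73 (others 13.85 to 13.88). Zkscan4 was well above background on no LPS array, and Csf3 on 1 of the 4 LPS arrays. The interaction of the LPS response with genotype, MK2/3-/- against wt BMDM, passed for 3 genes by limma, with differences of -2.20 for AK133004, -1.24 for Grpel2 and -1.68 for Mapkapk3. The part of the slides, which differ between genotypes, was not tested.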

How the results depend on the processing

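Of the genes that rose and fell in MK2/3-/- BMDM, 3107 and 3367, each count stayed within 1.5 times under the processing alternatives, apart from one that also required a change in size. Rises numbered 2215 (the methods' t-test, adjusted) to 3853 (culture as a replicate block) and falls 2464 to 4185 under the same alternatives, and leaving out single arrays gave 2627 to 3515 rises and 2741 to 3468 falls. The methods' t-test without adjustment called 3701 and 4363 genes. With a log2 change of at least 1 also required, 2047 genes rose and 1901 fell. The share of calls that rose was 48.0%, and it was 51.5% with 75th percentile scaling, 45.9% with normexp and 43.2% with probe means. The replicate number and the age in the labels gave the pairs of the block (MK2-/- medium replicate 3 with LPS replicate 4). Over all genes, the deviations of the 11 pairs correlated with r = 0.0657 to 0.566. The 33 other pairings of a medium with an LPS array within a genotype gave -0.378 to 0.121, so that these ranges overlapped. Dim probes were then left out, which kept 12569 genes. For these the 11 pairs gave 0.359 to 0.776 and the other pairings -0.467 to 0.340, so that every pair lay above every other pairing. The main test did not use the pairs. No call of a rise or fall was lost with the block. The 3 genes with an interaction with wt became 12 with the replicate block, 8 with normexp, 1 with only the arrays of the groups compared, 7 without medium replicates 1 and 2 (chosen after seeing the data), and 3 to 19 when single arrays were left out, with 19 without LPS replicate 4 and 5 without wt LPS replicate 3. With the block, Lig4, Il10, Cd3eap, Hhex, Srfbp1 and Map3k11 were among the genes that passed (adjusted p = 0.0176 to 0.045). The 0 genes with an interaction with MK2-/- became 5 without medium replicates 1 and 2, and 0 to 1 when single arrays were left out. Cd80, Mcl1 and Ptges reversed with the brightest probe (-1.25, -0.29 and -0.85). The causes were not tested. Of 220 named genes, 17 lost their call with 75th percentile scaling, 18 with the 8 arrays alone, 29 with the t-test, 16 without medium replicates 1 and 2, 5 to 12 without a single array and 0 to 3 under the others. With the t-test these included C3, Cpt2, E2f2, Fabp4, Setd7, Stat3 and Tlr1, which kept their calls otherwise, and Pparg and Tia1, lost also without medium replicates 1 and 2 and with the 8 arrays alone, respectively. For 330 genes that rose and 341 that fell, the dimmer group was well above background on no array, which limits their folds to lower bounds. These bounds hold for the main processing, and changes of several such genes were smaller under other settings.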

Other observations

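Genes outside the lists, chosen after their values were seen, also changed strongly in MK2/3-/- BMDM. Gfi1, a transcriptional repressor of myeloid cells, was well above background on 0 of 4 medium arrays and was at 10.16, 10.63, 10.42 and 9.85 after LPS (adjusted p = 7.01e-11 by limma). F3, the gene of tissue factor that starts blood clotting, rose from 4.36, 4.12, 3.54 and 4.63 to 11.69, 12.36, 11.15 and 10.11 (7.17 ± 0.60 SE, adjusted p = 2.94e-08). Marcksl1, a regulator of the actin cytoskeleton, rose from 10.45, 10.86, 8.74 and 10.30 to 16.04, 16.39, 16.24 and 15.76 (6.02 ± 0.38 SE, adjusted p = 7.19e-10), and Il4i1, an amino acid oxidase, from 10.76, 11.26, 9.78 and 9.50 to 16.94, 16.84, 16.77 and 14.81 (6.01 ± 0.61 SE, adjusted p = 4.27e-07). These genes had separate groups. Smad6, an inhibitor of BMP signalling, fell by 4.12 (adjusted p = 2.08e-07), and Lyl1, a blood cell transcription factor, by 4.34 (adjusted p = 3.06e-05). Cd300lb, an activating receptor of myeloid cells, fell by 4.42 (adjusted p = 1.26e-07). Among genes of cell division, Ccnf (cyclin F) fell by 4.08 (adjusted p = 0.00151) and Fbxo5, an inhibitor of the anaphase-promoting complex, by 4.02 (adjusted p = 0.000116).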
